A study of Mus musculus with 24 samples.

Results

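Processed pseudogenes of the cytosolic ribosomal protein genes were followed through the cerebral cortex and blood of newborn mice whose mothers had breathed traffic-related particles or filtered air. The members were chosen by gene type, by name and by counts. Of 48709 annotated genes, 262 were processed pseudogenes named after a ribosomal protein gene with the ending -ps. Of these, 79 had no count, 90 had between 1 and 99 counts over the 24 libraries, and 93 had 100 or more and were kept. The kept genes held 52 copies of large subunit genes and 41 copies of small subunit genes, derived by their names from 42 parent genes. Their counts chose them, so their levels are given as a description. Just inside the threshold were Rpl30-ps9 with 103 counts and Rps18-ps1 with 107. Among those outside it was Rps12-ps26 with 84 counts.

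RNA of cerebral cortex or whole blood from pups aged 3 to 5 days gave 24 libraries, 3 for each of 8 combinations of tissue, sex and exposure. The study's methods place the 3 pups of a sex and exposure in different litters and do not say whether males and females shared litters. All animals were labelled as the C57BL/6J strain, with no engineered allele, whereas the study's methods name the C57BL/6NJ substrain. Exposed pups were born to dams that inhaled re-aerosolized nano-sized particulate matter (nPM) for 5 hours a day on 3 days a week from gestational day 2. Control pups were born to dams kept in filtered air. The labels give the dose as 300 mg per m3. The study's methods give the same figure in micrograms per cubic metre, so the unit is uncertain. The study describes its blood and cortex as coming from the same animals. The labels do not tie a blood library to a cortex library of the same pup, so the tissue comparison treats all libraries as independent. The comparison of nPM with control asks whether exposure before birth moved these genes, and the cortex and blood comparison describes where they were counted.

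A processed pseudogene is a copy of a spliced mRNA that was written back into the genome, so it lacks the introns of its parent gene and usually its promoter. Ribosomal protein mRNAs are among the most abundant in any cell, and mammalian genomes hold many such copies of them. A copy that has kept the parental sequence cannot easily be told from the parent by a short read. The parent genes encode the proteins of the 60S and 40S ribosomal subunits. Counts on a copy can therefore stem from transcription of the copy or from parental reads placed there, and the counts used here cannot tell these apart. How reads with several placements were treated, the read length and the strand setting were not given in the sources used here.

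Cortex libraries held 22301409 to 33804371 counts and blood libraries 13595647 to 21895536. One blood library, female control replicate 2, stood apart from the other blood libraries. It had 22461 genes with a count against 13254 to 17273 in the others. Globin genes took 50.1% of its counts against 66.3 to 76.8%, and its 10 cortical neuron markers summed to 119 CPM, counts scaled to a common library total, against 2.54 to 35.9. It was left out of the blood comparisons below, as the study's methods leave out 1 blood sample, and its values are given separately. All 8 measured erythroid markers had counts in every blood library, and all 10 neuron markers in every cortex library, where they summed to 6376 to 7173 CPM. The 7 neutrophil markers summed to 58.1 to 147 CPM in the other blood libraries and to 30.7 CPM in the one left out, where 2 of them were at 0. Choroid plexus markers summed to 31.0 CPM in cortex male control replicate 1 and to 236 to 509 CPM in the other cortex libraries.

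The members were near-copies of their parents. Gencode M21 transcripts on the GRCm38 build were found for 92 of them, and 91 aligned over at least 50% of their length, with a median identity of 99.1% (87.5 to 100). Of the aligned members, 11 were identical to the parental mRNA, 49 had at least 99% identity and 3 had under 95%. For 47 the reading frame had the full parental length, and for 24 it was under 50% of that length. The shares of 50-base words that occur in no other of 141767 annotated transcripts had a median of 21.5%. In 20 members no such word was unique, and in 19 at least 50% were. These shares say how much of a member a 50-base read could assign to it if only annotated transcripts were in play.

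By position, 54 members lay outside other genes, 34 in an intron of another gene and 5 across an exon of another gene. Of the intronic members, 14 shared the strand of the host gene and 20 lay only on the opposite strand. In the annotation used for counting, the transcribed processed pseudogenes among the members were 4, Rpl10-ps1, Rps26-ps1, Rpl39-ps and Rps2-ps10. The later M21 release names 5 members as transcribed, among them Rps15a-ps4 and Rpl29-ps2 but not Rpl39-ps, and gives Rpl36a-ps1 as protein coding. The X chromosome held the most members, 10, followed by chromosome 8 with 9. The parent with the most members was Rpsa with 6, and Rps12, Rps15a and Rpl17 had 5 each.

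The members together took 299932 counts, of which 34.3% fell on 6 of them. As a share of the counts on 79 ribosomal protein genes, the members hardly separated the tissues. Per 100 ribosomal protein gene counts there were 3.93 to 4.93 member counts in the 12 cortex libraries (mean 4.30 ± 0.298, SD, n = 12) and 3.25 to 4.58 in the 11 blood libraries (mean 3.93 ± 0.467, SD, n = 11). The blood library left out gave 4.34. In CPM the tissues lay far apart, at 626 to 802 CPM in cortex and 106 to 255 CPM in blood. Once globin counts were removed from the total, the ranges were 0.0626 to 0.0803% of counts in cortex and 0.0433 to 0.0779% in blood, and they overlapped. The blood library left out lay at 654 CPM, among the cortex libraries, and at 0.131% of non-globin counts, above every other library. In it, 72 of the 93 members had a higher CPM than in any other blood library.

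**Figure D1:**
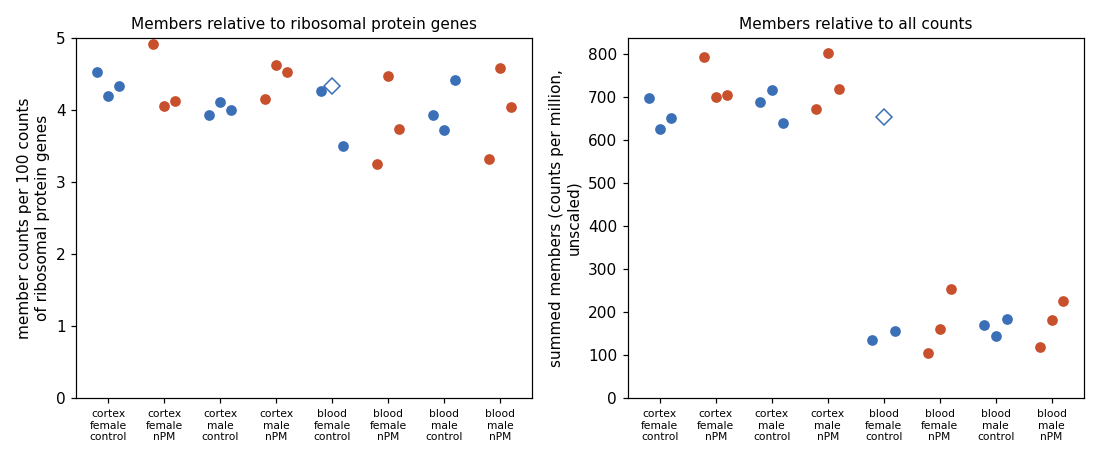
Summed counts of the 93 members in each library, per 100 counts of the ribosomal protein genes (left) and in CPM of all counts (right), by tissue, sex and exposure, with control in blue and nPM in orange. The open diamond is blood female control replicate 2, which lies at 4.34 with the other libraries on the left and at 654 among the cortex libraries on the right.

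The exposure groups overlapped on both measures. In cortex the members summed to 670 ± 35.8 CPM in controls and 732 ± 53.6 CPM in nPM pups (SD, n = 6 each), with ranges of 626 to 716 and 672 to 802. In blood they summed to 158 ± 19.7 CPM in controls (SD, n = 5) and 174 ± 58.7 CPM in nPM pups (SD, n = 6).

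Levels of single members are given as CPM scaled by the TMM method within a tissue, on genes counted in every library of that tissue, so the scale differs between cortex and blood. Among large subunit copies, Rpl38-ps2 (chr6:140746960-140747172, minus strand, antisense in an intron of Gm11077) had the highest level per length in both tissues. It stood at 155 scaled CPM per kb in cortex and 69.6 in blood. Rpl38 encodes a small protein of the large subunit. Over its 213 bases the copy is identical to the parental mRNA and holds no unique word. In cortex it ranged from 27.1 to 37.2 scaled CPM with a median of 33.8, one of the narrowest ranges of any member.

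Rpl14-ps1 (chr7:45324965-45325617, plus strand, antisense in an intron of Trpm4) took more counts than any other member, 24400. Rpl14 encodes a large subunit protein. The 4 cortex groups lay close together, with 63.0, 53.8 and 63.7 scaled CPM in control females, 63.5, 65.5 and 62.6 in control males, 63.3, 65.5 and 69.7 in nPM females and 56.6, 63.0 and 61.8 in nPM males. The highest library was 1.30 times the lowest. Control and nPM libraries overlapped in each sex, while the nPM females lay just above the nPM males. The copy stood at 38.3% of the parental counts in cortex and 46.0% in blood, and 21.7% of its 50-base words were unique. The following window is shown because it holds 5 of the alignment columns in which copy and parent differ, 3 of them a gap in the copy. It spans chr7:45325344-45325460 of the plus strand, and capitals mark the differing bases.
Rpl14-ps1: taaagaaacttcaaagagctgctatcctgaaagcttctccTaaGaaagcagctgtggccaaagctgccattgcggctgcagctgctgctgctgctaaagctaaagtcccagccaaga
Rpl14: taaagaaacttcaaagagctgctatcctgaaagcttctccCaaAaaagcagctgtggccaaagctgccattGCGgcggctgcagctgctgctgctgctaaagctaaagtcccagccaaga
Rpl14 itself was the other annotated gene that shared a 50-base word with this copy, so the rest of the words belonged to Rpl14-ps1 alone.

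The other large subunit copies with high levels per length in cortex were Rpl21-ps15 (chrX:151215167-151215649, minus strand, antisense in an intron of Wnk3), Rpl34-ps1 (chr6:71124610-71124963, plus strand, outside other genes) and Rpl17-ps10 (chr7:72648757-72649311, minus strand, outside other genes). Rpl21-ps15 ranged from 30.7 to 43.7 scaled CPM in cortex, Rpl34-ps1 from 18.5 to 23.9 and Rpl17-ps10 from 16.2 to 43.5. Per kb, Rpl21-ps15 stood at 193% and Rpl34-ps1 at 144% of the parent. Both parents have long annotated lengths, 3.40 kb for Rpl21 and 2.64 kb for Rpl34, which count all annotated exons and lower the parental value. In blood the leading large subunit copies were Rpl17-ps10, Rpl17-ps5, Rpl31-ps8 and Rpl10-ps6, at 29.3, 25.9, 17.1 and 16.9 scaled CPM per kb.

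Among small subunit copies, Rpsa-ps10 (chr3:150072658-150073542, minus strand, outside other genes) led in cortex at 56.3 scaled CPM per kb and Rps12-ps9 (chr8:123206623-123207021, plus strand, in an intron of Gm20388 on its own strand and of Chmp1a on the other) led in blood at 36.0. Rpsa encodes a protein of the small subunit that is also known as the laminin receptor precursor, and Rps12 encodes a small subunit protein. Rpsa-ps10 had 42.2 to 56.8 scaled CPM in cortex and 2.96 to 14.97 in blood. Its open frame covers 11.5% of the parental one.

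Against the parent gene, most members were small. The median member had 1.097% of the parental counts in cortex and 1.02% in blood, or 4.74% and 4.54% per kb. In cortex 13 of the 93 exceeded 10% of the parental counts and 43 were below 1%. For 26 members with a mean of 20 or more counts in both tissues, the ratio to the parent in cortex divided by that in blood had a median of 0.989, with 12 members above 1. The range was wide, from 0.0417 for Rps12-ps9 to 5.90 for Rpl17-ps8.

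The library-to-library spread set many members apart from their parents. The spread is given here as the SD of log2 scaled CPM within groups of like sex and exposure, pooled over the groups of a tissue. In cortex it had a median of 0.255 for 92 members and 0.0758 for 79 ribosomal protein genes. Since spread depends on counts, 46 members with mean counts between 17.8 and 273 were set beside 6404 other genes in that range, and the medians were 0.297 and 0.223. An SD above 1, that is a typical deviation of more than 2-fold, was found for 4 of those 46 members (8.70%) and for 14 of those other genes (0.219%), and for 6 members at any count. In blood the medians were 0.487 for 47 members, 0.410 for 78 ribosomal protein genes and 0.332 for other genes of like counts.

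Rpl7a-ps11 (chrX:166854211-166855011, plus strand, outside other genes) varied most in cortex, with an SD of 2.67 on the log2 scale. Rpl7a encodes a large subunit protein, and this copy keeps the full reading frame. It had 1.53, 1.53 and 55.9 scaled CPM in control females, 1.53, 5.99 and 1.14 in control males, 97.9, 1.24 and 1.38 in nPM females and 1.52, 34.4 and 103 in nPM males. High values were found in 4 of the 12 libraries, spread over 3 of the 4 groups, 7 lay between 1.14 and 1.53, and every group overlapped another. The highest was 90.2 times the lowest, while the parent Rpl7a ranged from 116 to 148 scaled CPM, a ratio of 1.28. The window chrX:166854336-166854455 (plus strand) is shown because the only difference in it, in capitals, is 1 of 2 between the whole copy and the parental mRNA.
Rpl7a-ps11: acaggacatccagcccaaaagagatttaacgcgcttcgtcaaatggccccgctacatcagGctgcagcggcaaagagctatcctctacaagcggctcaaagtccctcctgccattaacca
Rpl7a: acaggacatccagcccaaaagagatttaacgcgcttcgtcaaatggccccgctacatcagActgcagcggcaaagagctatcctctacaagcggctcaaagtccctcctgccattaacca
No 50-base word of this copy was unique, since Gm8226, another processed copy, shared 99.6% of them with Rpl7a-ps11 and Rpl7a shared 86.7%. Gm8226 was high in 1 cortex library, male control replicate 1, at 39.3 scaled CPM, and lay between 0.154 and 0.429 in the other 11. Rpl7a-ps11 was low in that library. Gm8226, Rps12-ps3, Rpl35a-ps2 and Rpl35a-ps6 were chosen for the text after their values were seen.

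Rpl15-ps3 (chr9:22185607-22186221, minus strand, outside other genes) is identical to the coding sequence of Rpl15, a large subunit protein gene, and holds no unique word. Its cortex values were 1.72, 24.96 and 1.22 scaled CPM in control females, 25.7, 14.1 and 6.47 in control males, 1.61, 2.05 and 32.1 in nPM females and 3.797, 1.88 and 1.19 in nPM males. Values above 20 were found in 3 libraries of 3 different groups and values below 4 in 7, while Rpl15 ranged from 192 to 241. The first 120 bases of the copy (chr9:22186102-22186221, minus strand) are shown to make this identity visible, and the parental coding sequence has the same letters throughout.
Rpl15-ps3: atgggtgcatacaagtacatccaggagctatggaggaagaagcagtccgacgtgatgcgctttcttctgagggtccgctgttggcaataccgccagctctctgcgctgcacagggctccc

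Rpl35a-ps2, Rpl35a-ps3 and Rpl35a-ps6, copied from a large subunit gene, have identical transcripts of 333 bases. In cortex their highest libraries were not the same ones. Rpl35a-ps6 ranged from 0.825 to 11.3 scaled CPM and was highest in male control replicate 2. Rpl35a-ps2 ranged from 0.225 to 3.71 and was highest in female control replicate 2. Rpl35a-ps3 ranged from 0.0906 to 1.71 and was highest in male nPM replicate 3. The parent stayed between 82.4 and 108. The window of Rpl35a-ps6 at chr5:123255599-123255718 (minus strand) shows, in capitals, the only base that differs from Rpl35a in it, and the 3 copies share its letters.
Rpl35a-ps6: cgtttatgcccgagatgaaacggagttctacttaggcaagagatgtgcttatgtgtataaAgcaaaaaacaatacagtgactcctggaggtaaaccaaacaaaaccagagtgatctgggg
Rpl35a: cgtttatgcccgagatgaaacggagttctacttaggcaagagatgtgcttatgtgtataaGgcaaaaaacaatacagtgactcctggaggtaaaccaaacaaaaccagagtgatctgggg

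Of the Rpl17 copies, Rpl17-ps9 and Rpl17-ps8 had an SD of 1.22 and 1.08 on the log2 scale in cortex. Rpl17 encodes a large subunit protein. Rpl17-ps9 (chr7:36118274-36118828, plus strand) stood at 14.1 scaled CPM in male control replicate 1 and between 0.185 and 1.06 in the other 11 cortex libraries. Rpl17-ps8 (chrX:96484859-96485479, plus strand, in an intron of Heph) had 80.2, 12.7 and 34.1 scaled CPM in control females, 18.6, 10.01 and 10.2 in control males, 57.0, 25.3 and 8.15 in nPM females and 58.1, 54.2 and 18.2 in nPM males. In 1 library, female control replicate 1, it lay above the parent, which ranged from 67.2 to 84.9. Rpl10-ps6 (chr19:37295155-37295796, minus strand, in an intron of Ide) is a copy of Rpl10, whose protein joins the large subunit late. It lay at 7.71 to 13.1 scaled CPM in 3 cortex libraries and at 29.7 to 37.1 in the other 9.

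**Figure D2:**
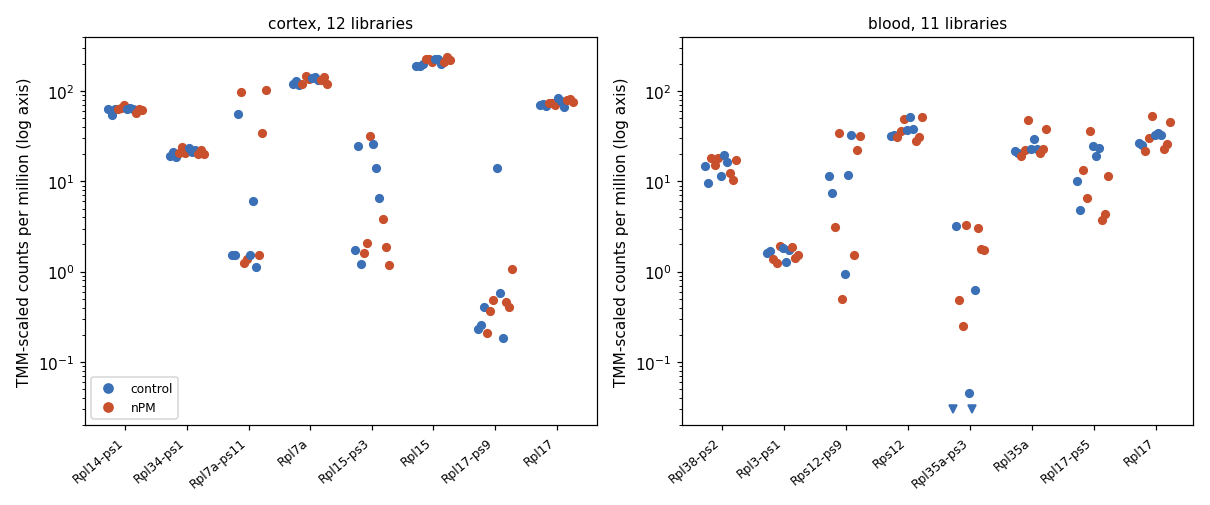
TMM-scaled CPM (log axis) of chosen members and their parent genes in each of 12 cortex and 11 blood libraries, with control in blue and nPM in orange and, within each gene, females to the left of males. Triangles at the bottom mark a count of 0. In cortex, Rpl14-ps1 and Rpl34-ps1 form tight groups, Rpl7a-ps11 spans 1.14 to 103 and Rpl15-ps3 1.19 to 32.1, and the parents Rpl7a and Rpl15 stay within a narrow band.

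Wide ranges were set beside the share of unique sequence. Among members with a mean of 20 or more counts in cortex, the highest library exceeded 4 times the lowest in 12 of 29 with under 10% unique words, in 4 of 23 with 10 to under 40%, and in 1 of 14 with 40% or more. The median SDs of the 3 sets were 0.295, 0.321 and 0.201. Members without a unique word also included some of the steadiest, with an SD of 0.0853 for Rpl38-ps2 and 0.0945 for Rpl34-ps1. Rpl14-ps1, in the set with 10 to under 40%, lay between them at 0.0878. In all, 17 of 67 such members varied more than 4-fold in cortex and 11 varied less than 1.5-fold. The sets also differed in counts, with median mean counts of 330, 76.1 and 52.1. In blood no such order was seen, since 7 of 15, 4 of 8 and 1 of 3 members exceeded 4-fold and the median SDs were 0.530, 0.645 and 0.499. The blood sets hold only members with a count in every blood library, which leaves out Rpl35a-ps3, a member without a unique word. The part of sequence sharing in the spread was not tested.

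**Figure D3:**
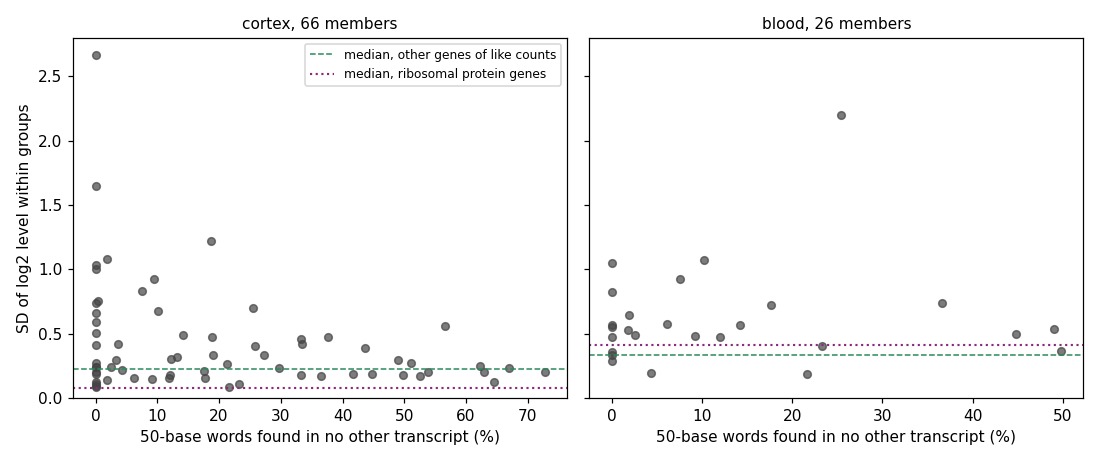
SD of the log2 level within groups against the percentage of 50-base words found in no other annotated transcript, in cortex (left) and blood (right). Shown are members with a mean of 20 or more counts and a count in every library of the tissue. Lines give the median SD of other genes of like counts and of ribosomal protein genes, and the 2.67 of Rpl7a-ps11 lies at a share of 0%.

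Among members with a count in every blood library, the widest range in blood belonged to Rps12-ps9. It had 11.5 and 7.42 scaled CPM in control females, 0.940, 11.9 and 32.9 in control males, 3.15, 34.03 and 0.493 in nPM females and 1.53, 22.4 and 31.8 in nPM males. Values near or below 1 and values above 30 both occurred in controls and in nPM pups, and the highest was 69.1 times the lowest. The parent Rps12 ranged from 28.0 to 51.8, and in the library with the most Rps12-ps9 the copy was close to the parental level. In cortex Rps12-ps9 lay between 0.302 and 3.64 scaled CPM beside a parent at 73.5 to 104. A close relative annotated as protein coding, Rps12-ps3, ranged from 3.22 to 36.6 in blood and was lowest in the 2 libraries in which Rps12-ps9 was highest. In male nPM replicate 3, where Rps12-ps9 was nearly as high at 31.8, Rps12-ps3 stood at 17.7, its median in blood. The window chr8:123206659-123206778 (plus strand) is shown because it holds both bases, in capitals, in which the copy differs from Rps12.
Rps12-ps9: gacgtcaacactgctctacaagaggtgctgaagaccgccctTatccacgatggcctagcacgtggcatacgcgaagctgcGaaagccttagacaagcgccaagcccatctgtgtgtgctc
Rps12: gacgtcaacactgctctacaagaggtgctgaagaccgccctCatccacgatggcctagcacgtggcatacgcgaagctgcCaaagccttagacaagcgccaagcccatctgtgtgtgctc

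Other blood members with wide ranges were Rpl17-ps5 (chr5:22612628-22613182, minus strand, antisense in an intron of 6030443J06Rik), Rpl17-ps8 and Rpl35a-ps3 (chr17:29136972-29137304, minus strand, antisense in an intron of Rab44). Rpl17-ps5 ranged from 3.78 to 36.0 scaled CPM, and female nPM replicate 3 was highest. Rpl17-ps8 ranged from 0.354 to 7.16 scaled CPM. Rpl35a-ps3 was at 0 counts in 2 control libraries and reached 3.30 scaled CPM in female nPM replicate 3. The ribosomal protein genes themselves varied in blood, with summed levels of 3160 to 6802 CPM, so a range of about 2-fold was shared with the parents.

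Between cortex and blood the direction of the members depended on the scaling. With TMM over all genes, edgeR's quasi-likelihood test with Benjamini-Hochberg adjustment put 4 of 92 members higher and 65 lower in cortex at adjusted p under 0.05, whereas 53% of all 21232 genes were called higher and 25.8% lower. Per total counts the same test put 86 members higher and 2 lower, beside 92.9% and 5.3% of all genes. Per non-globin counts it put 54 higher and 16 lower, beside 84.2% and 10.3% of all genes. The median log2 difference of the members was -1.69, 2.58 and 0.71 in the 3 scalings, and that of all genes was 1.08, 5.13 and 3.44. Relative to the median gene, the members were lower in cortex, with -2.76, -2.55 and -2.74. A change of scaling moves all genes nearly alike, so the likeness of these 3 values is no separate support. The value also depends on the filter. With TMM and only genes counted in every library of both tissues, it was -1.98 for 47 members. The median of the ribosomal protein genes was -1.78, 2.49 and 0.63, close to that of the members. In bulk tissue, fewer cells of a type and less RNA per cell cannot be told apart, and RNA integrity, at 9.4 to 9.9 in cortex and 7.5 to 9.3 in blood, cannot be told apart from tissue. Lane was also largely tied to tissue, since lane 1 held only blood libraries, lane 2 only cortex libraries and lane 3 both. With lane 3 alone and TMM, 3 members were called higher and 53 lower in cortex, where 61.9% of all genes were called in either direction.

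Member and parent differed between the tissues by similar amounts. The member's log2 difference minus that of its parent had a median of 0.09 with TMM, 0.06 per total counts and 0.06 per non-globin counts. In 72 of 92 members it lay within 1 of the parent with TMM. Reads of the parent placed on the copy would move with the parent, and their part was not tested.

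**Figure D4:**
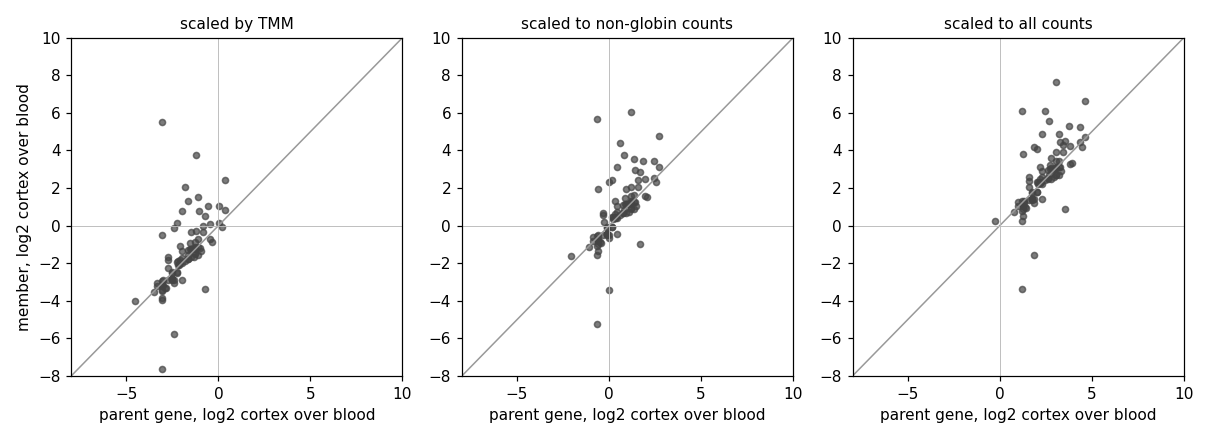
Log2 difference of cortex over blood for 92 members (vertical) against that of the parent gene (horizontal) with TMM scaling, per non-globin counts and per all counts. The grey diagonal marks equal differences. The cloud follows the diagonal in each panel and moves from below 0 to above 0 with the scaling, from a median of -1.69 to 2.58.

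The members with the largest tissue differences in either direction were of low count in one tissue or varied widely between libraries. With TMM, Rps12-ps9 was lower in cortex, with a log2 difference of -7.64 ± 0.59 (SE, adjusted p = 1.64e-12 by edgeR), as was Rpl35a-ps3 with -5.79 ± 0.58 (adjusted p = 4.25e-10). These sizes belong to TMM, since the median of all genes was 1.08 with TMM and 5.13 per total counts. Unscaled, Rps12-ps9 had a mean of 39.3 counts in cortex and 261 in blood. Both members stayed lower in cortex and called in the other settings that tested them, 33 for Rps12-ps9 and 32 for Rpl35a-ps3. Rplp0-ps1, a 94.2% identical copy of the gene for the stalk protein of the large subunit in an intron of Flg (chr3:93278141-93279073, plus strand), was at -4.01 ± 0.46 with TMM, near its parent at -4.53, but at 0.24 per total counts. It had 2 to 16 counts in a cortex library and 0 to 8 in a blood library other than the one left out, which had 127.

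The largest differences towards cortex were those of Rps12-ps1, Rpl5-ps1 and Rpl15-ps3. Rps12-ps1 (chrX:103489517-103489917, plus strand) had 5 to 19 counts in each cortex library and 0 in every blood library, which makes it at least 24.2-fold higher in cortex per total counts and at least 6.58-fold per non-globin counts, against a floor of 3 counts over the blood libraries together. Its fitted log2 difference depends on the prior count and is no bound. Rpl5-ps1 (chr1:14865072-14865965, plus strand), a copy of the gene for a large subunit protein that binds the 5S RNA, had 49 to 202 counts in a cortex library and 3 in 11 blood libraries. Its ratio was 263 per total counts, with an exact 95% Poisson interval of 90.2 to 1278, and 71.8 (24.6 to 348) per non-globin counts. The intervals cover counting error only. Rpl15-ps3 was at 2.41 ± 1.18 with TMM, with an adjusted p of 0.0636 by edgeR. It was called in 11 of the other settings and not in 21. The median of the members does not depend on the value of Rps12-ps1, and members without counts in blood that pass the filter had to differ.

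The nPM comparison in cortex called no member. With sex and RNA integrity as covariates, edgeR's quasi-likelihood test gave 0 of 92 members at adjusted p under 0.05, where 0.0144% of all 20857 genes were called, and 5 at an unadjusted p under 0.05, where 5.67% of all genes were. At the study's unadjusted cutoff of 0.005 there was 1 member, beside 0.614% of all genes. By log2 fold change, 61 of 92 members were above 0, with a median of 0.09. Of the ribosomal protein genes, 73 of 79 were above 0, with a median of 0.05, and 2 had an unadjusted p under 0.05. The share of all genes above 0 is not set beside these and the later counts of direction, which are therefore a description. DESeq2 called 1 member, where it called 0.105% of all genes. No member had nPM libraries that did not overlap the control libraries, as 0.197% of all genes did.

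The member with the smallest p was Rps13-ps2 (chr7:88530446-88530898, minus strand, outside other genes). It is identical to the parental Rps13 sequence, a small subunit gene, over its length and has no unique word. It had 3.59, 3.68 and 1.83 scaled CPM in control females, 1.79, 6.37 and 5.36 in control males, 1.30, 1.48 and 1.87 in nPM females and 2.11, 1.59 and 1.83 in nPM males. Of the controls, 4 lay above every nPM library and the others lay among them. The fitted log2 difference was -1.15 ± 0.27 (SE), with an adjusted p of 0.493 by edgeR and 0.0154 by DESeq2, and a two-sided exact permutation test of the levels gave an unadjusted p of 0.0238. The parent Rps13 differed by 0.06 ± 0.05. Next came Rpl7a-ps11 at 2.87 ± 1.13 (adjusted p = 0.856, edgeR) and Rpl29-ps2 at -0.74 ± 0.30 (adjusted p = 0.862, edgeR). Rpl7a-ps11 rests on the high libraries described above, of which 3 were nPM and 1 was control, and the exact permutation test gave p = 0.284. Rpl29-ps2 had 3 to 17 counts in a cortex library.

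Within females, 2 of 92 members passed at adjusted p under 0.05, where 1.11% of 21731 genes did. The unadjusted cutoffs gave 7 members at 0.005 and 18 at 0.05, beside 4.02% and 15.4% of all genes. Rps27a-ps2 (chr9:83409660-83410126, plus strand, antisense in an intron of Lca5) was lowered in nPM females. Rps27a encodes ubiquitin fused to a small subunit protein. The copy had 17.6, 15.3 and 14.5 scaled CPM in control females and 8.53, 6.76 and 7.84 in nPM females, so the groups did not overlap. The fitted log2 difference was -0.99 ± 0.10 (SE, adjusted p = 0.00175, edgeR). The parent moved the other way, at 131, 133 and 135 in control females and 158, 174 and 167 in nPM females, with a log2 difference of 0.31 ± 0.05 (adjusted p = 0.0123, edgeR).

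In males Rps27a-ps2 had 5.18, 27.4 and 8.37 scaled CPM in controls and 7.76, 28.9 and 15 in nPM pups, and the groups overlapped. The difference between the sexes in the effect of nPM was 1.55 ± 0.76 on the log2 scale with an adjusted p of 0.542 by edgeR, so the effect is not shown to be particular to females. In the blood library left out, Rps27a-ps2 had 1013 counts, which is 47.8 unscaled CPM, where the other blood libraries held 1 to 23 counts. Of the 50-base words of Rps27a-ps2, 0.479% were unique, and Rps27a shared 88.0% of them. The window chr9:83409974-83410093 (plus strand) is shown because it holds, in capitals, the only base in which the aligned copy differs from its parent.
Rps27a-ps2: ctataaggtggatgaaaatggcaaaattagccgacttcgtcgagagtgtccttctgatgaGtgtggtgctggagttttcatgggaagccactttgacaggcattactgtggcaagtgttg
Rps27a: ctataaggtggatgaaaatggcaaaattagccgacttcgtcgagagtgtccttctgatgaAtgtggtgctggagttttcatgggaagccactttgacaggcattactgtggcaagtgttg

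Rpsa-ps10 was raised in nPM females, at 45.8, 43.7 and 43.0 scaled CPM in controls and 54.1, 52.8 and 56.1 in nPM pups. The log2 difference was 0.31 ± 0.05 (SE, adjusted p = 0.0162, edgeR). Leaving out single libraries ended the call in 5 of 6 cases, with adjusted p between 0.0701 and 0.112, although the log2 difference stayed at 0.31 or 0.32. In males it had 53.3, 51.4 and 42.6 in controls and 56.0, 56.8 and 42.2 in nPM pups, and the groups overlapped. The parent Rpsa differed by 0.12 ± 0.06 in females. By log2 difference, 78 of 79 ribosomal protein genes and 67 of 92 members were above 0 in the female comparison. Of those ribosomal protein genes, 65 had an unadjusted p under 0.05 and 2 an adjusted p under 0.05 by edgeR.

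Within males no member passed at adjusted p under 0.05, and 0% of 21670 genes did. DESeq2 called 0 members too, where it called 0.0138% of all genes. There were 7 members at an unadjusted p under 0.005, where 0.318% of all genes lay, and 11 at 0.05, where 4.51% lay. The smallest p values belonged to members with wide library-to-library ranges. Rpl7a-ps11 was at 5.13 ± 0.91 and Rpl15-ps3 at -3.08 ± 0.57 (log2, SE), both with an adjusted p of 0.962 by edgeR. For Rpl7a-ps11 the male groups overlapped, since 1 of the 3 nPM males lay at 1.52. For Rpl15-ps3 they did not, with 6.47 to 25.7 in controls and 1.19 to 3.797 in nPM males, while in females the highest of all libraries was an nPM one.

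**Figure D5:**
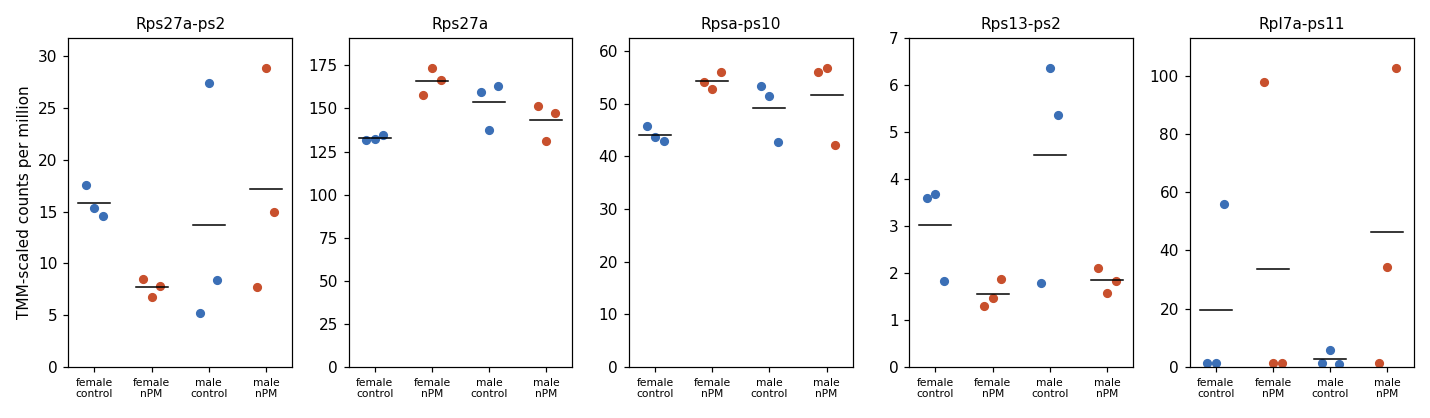
TMM-scaled CPM in cortex of Rps27a-ps2, its parent Rps27a, Rpsa-ps10, Rps13-ps2 and Rpl7a-ps11 by sex and exposure, with 3 libraries a group as points and the group mean as a line. Rps27a-ps2 lies at 14.5 to 17.6 in control females and 6.76 to 8.53 in nPM females, and spreads from 5.18 to 28.9 in males.

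The exposure-by-sex term in cortex called no member by edgeR, where 0% of all genes were called. DESeq2 called no member either, where 0.24% of all genes were called. At an unadjusted p under 0.005 there were 4 members of 92, where 1.35% of all genes lay, and 10 at 0.05, where 9.68% lay. The log2 term was above 0 for 28 of 92 members and for 2 of 79 ribosomal protein genes, and 53 of the latter were lower with an unadjusted p under 0.05. The smallest p belonged to Rpl35a-ps3 at 4.77 ± 1.03 (adjusted p = 0.303, edgeR), which had 3 to 53 counts in a cortex library. Rpl3-ps1 (chrX:13202571-13203780, plus strand, outside other genes), a copy of the gene for a large subunit core protein, came next at -0.53 ± 0.15 (adjusted p = 0.360, edgeR). It had 36.0, 29.6 and 33.7 scaled CPM in control females, 43.1, 33.2 and 40.2 in control males, 32.2, 32.2 and 44.5 in nPM females and 38.5, 32.0 and 27.5 in nPM males, and the groups overlapped.

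In blood 47 members had a count in each of the 11 libraries and were tested. None passed at adjusted p under 0.05 by edgeR or DESeq2, and 0% of 9977 genes did by edgeR. None had an unadjusted p under 0.005, where 0.17% of all genes lay, and 2 were under 0.05, where 3.11% lay. These were Rpl7a-ps11 at -1.46 ± 0.68 and Rps15a-ps6 at 0.87 ± 0.41 (log2, SE, adjusted p of 1.00 each by edgeR), followed by Rpl28-ps3 at 0.81 ± 0.44. Each moved with single libraries. Rpl7a-ps11 was at -0.27 without male control replicate 1, Rps15a-ps6 at 0.51 without female nPM replicate 3 and Rpl28-ps3 at 0.41 without male nPM replicate 2. Rps15a-ps6 (chr11:6172644-6173036, minus strand, in an intron of Nudcd3) is a copy of a small subunit gene. It had 0.399 to 1.1 scaled CPM in 5 controls (median 0.708) and 0.587 to 2.86 in 6 nPM libraries (median 1.22), and the groups overlapped. No member had nPM and control libraries that did not overlap in blood, as 0.221% of all genes did.

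The exposure-by-sex term in blood had its smallest p values among the members in copies of Rpl17. No member passed at adjusted p under 0.05 by edgeR, where 0% of all genes did. By DESeq2 1 member passed, where 0.0401% of all genes did. In the edgeR fit 2 of 47 had an unadjusted p under 0.005, where 0.902% of all genes lay, and 7 under 0.05, where 10.7% lay. Rpl17-ps5 had 10.1 and 4.84 scaled CPM in control females, 24.8, 19.04 and 23.4 in control males, 13.5, 6.62 and 36.0 in nPM females and 3.78, 4.35 and 11.6 in nPM males. Its control males lay above all nPM males, and its female groups overlapped. The term was -3.49 ± 0.66 (log2, SE, adjusted p = 0.214, edgeR). Rpl17-ps8, a copy that shares 71.0% of its 50-base words with Rpl17-ps5, went the other way at 3.71 ± 0.78 (adjusted p = 0.221, edgeR, and 0.0364, DESeq2). It had 4.67 and 2.15 in control females, 0.537, 0.354 and 0.550 in control males, 2.56, 1.16 and 0.887 in nPM females and 2.45, 7.16 and 1.85 in nPM males. The parent Rpl17 ranged from 21.8 to 53.2 in the 11 libraries, and the female control group held 2 libraries.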

How the data were processed

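The deposited counts were raw read counts per gene and library. The authors made them with FastQC, Trimmomatic where needed, HISAT2 on mm10 and featureCounts 1.5.0-p3 on Gencode M11 genes. The deposited gene map also holds the authors' mean RPKM per gene, a value pooled over libraries that was not used. The strand setting and the treatment of reads with several placements were not given in the sources used here. No column of per-sample values was left out.

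Scaled CPM used TMM factors of edgeR 4.0.16 (R 4.3.3), set within each tissue on genes with a count in every library. Differences were tested over all such genes with edgeR's quasi-likelihood test and Benjamini-Hochberg adjustment, with RNA integrity and, where both sexes entered, sex as covariates of the exposure fits. The tissue fit kept genes counted in every library of at least 1 tissue, with exposure and sex as covariates. Levels were log2-transformed with a pseudocount of 0.5 CPM where spreads are given. Single levels were compared with two-sided exact permutation tests (SciPy 1.17.1). DESeq2 1.42.0 and limma 3.58.1 served as alternatives, and the code was tested on simulated data. Replicate pairs all differed by more than counting noise. Intervals and floors cover counting error only. Sequences were taken from Gencode M21 transcripts (GRCm38) and aligned with Biopython 1.88.

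The members and gene lists were chosen with earlier results of these data known. The members named were those with the highest counts per kb in each tissue (6 each), the smallest p in each exposure comparison (2 or 3 each), the largest tissue differences in each direction (3 each), the widest ranges in each tissue (3 each), those next to the count threshold, of which 1 is not reported here, and any called by exposure.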

Additional observations from a re-analysis of the deposited data

Results flagged for a closer look

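Among 54 groups of 5 or 6 libraries of one named member, tissue and exposure, 12 held a library far from the others by Dixon's criterion, where chance gives about 1 in 20. Several of these members were named for their wide ranges, so the number is a description and no comparison with chance. Most were single high libraries in scaled CPM. In cortex, Rpl7a-ps11 stood at 55.91 in female control replicate 3 against at most 5.991 in the other controls. Rpl35a-ps3 stood at 1.391 in the same library, with the next control at 0.2868. Rpl17-ps9 stood at 14.07 in male control replicate 1 (next 0.5736) and at 1.062 in male nPM replicate 3 (next 0.49). Rpl15-ps3 reached 32.07 in female nPM replicate 3 (next 3.797) and Rps27a-ps2 reached 28.87 in male nPM replicate 2 (next 15).

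Among the steadier members, Rpl14-ps1 was low at 53.78 in female control replicate 2 (next 62.62) and Rpsa-ps10 at 42.15 in male nPM replicate 3 (next 52.84). In blood, Rpl17-ps5 reached 36 in female nPM replicate 3 (next 13.5), Rpl17-ps8 reached 7.162 in male nPM replicate 2 (next 2.562), Rpl35a-ps3 reached 3.225 in female control replicate 3 (next 0.6285) and Rpl7a-ps11 reached 2.551 in male control replicate 1 (next 0.5662).

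The blood library left out of the comparisons, female control replicate 2, held 653.8 unscaled CPM on the members together, where the other blood libraries reached at most 254.9.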

How the results depend on the processing

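The number of members called by exposure moved with the tool and the filter. DESeq2 gave 1 in cortex and 1 for the blood exposure-by-sex term, where edgeR gave 0. It called 0.105% and 0.0401% of all genes there. In females DESeq2 gave 3, where it called 2.04% of all genes. Testing genes with a count in any library gave 8 in cortex, 11 for the cortex sex term, 5 for the blood sex term, 17 in females (2 otherwise) and 14 in males (0 otherwise), where 0.57%, 1.17%, 0.361%, 4.19% and 0.507% of all genes were called. With that filter edgeR's prior degrees of freedom rose to 365.1 in cortex and to infinity in the other exposure fits, so a member's own spread hardly entered its p. A lane covariate gave 2 in males, where 0.0231% of all genes were called. Leaving out 1 library gave 1 to 4 in females, with 4 without female nPM replicate 1 and 1 without female nPM replicate 2, female control replicate 2 or female control replicate 3. It gave 0 to 1 in males, with 1 without male nPM replicate 1 or male control replicate 3, and 0 to 1 for the blood sex term, where Rpl17-ps5 was called without male nPM replicate 3. Rps27a-ps2 was called in females in all 6 of these fits. The shares of all genes called in the fits without 1 library are not set beside these counts, which are therefore a description.

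For cortex against blood, members higher numbered 86 per total counts, 54 per non-globin counts and 2 among genes counted in every library (4 otherwise), and members lower numbered 2, 16 and 41 (65 otherwise). The filter on every library left 43 of 47 members called (91.5%), beside 90.9% of all 9602 genes. The median log2 difference turned to 2.58 and 0.7052 in those 2 scalings. Among named members, Rplp0-ps1 turned to 0.2447 per total counts and Rps12-ps1 to -0.6423 with limma voom. The cortex exposure difference of Rpl17-ps9 ran from -2.328 to 0.5635 when 1 library was left out, and was positive only without male control replicate 1. The blood difference of Rps12-ps9 turned to 0.2021 with voom, 0.3511 without RNA integrity and 0.04869 with all 12 blood libraries, and ran from -0.7036 to 0.5496 when 1 library was left out, above 0 without control female 1, control male 3, nPM female 1, nPM female 3 or nPM male 1. The causes of the other changes were not tested. No paired analysis was possible because the replicate numbers were given in accession order and pair no samples. Read placement among near-identical copies limits every member's value, whatever the depth.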
